A study of Mus musculus with 8 samples.

Results

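The 10 genes described here cover how a macrophage takes up, stores, exports and senses iron. They were chosen by name, with earlier results of these data known. The uptake genes are Tfrc, Slc11a2 and Slc11a1, and the storage genes are Fth1, Ftl1 and Ncoa4. The exporter is Slc40a1, and the regulators are Ireb2, Aco1 and Bach1. All 10 were found by symbol among the 49315 genes of the count table through GENCODE M21, and all 10 were among the 13051 genes with enough counts to be tested. The cells were bone marrow-derived macrophages (BMDMs), primary macrophages grown from femur and tibia marrow of C57BL/6 mice in 10 ng/ml of macrophage colony-stimulating factor. One group of 4 libraries came from cells transfected with a negative control gapmeR (replicates 2, 5, 6 and 7) and the other group of 4 from cells transfected with a gapmeR against the long noncoding RNA MAARS (replicates 9, 11, 13 and 15), in both cases at 25 nM per the labels and with Lipofectamine 3000. A gapmeR is a short antisense oligonucleotide through which RNase H cuts the matching RNA, and the comparison asks which transcripts differ when MAARS is lowered. Both groups therefore received an oligonucleotide and a transfection reagent. The age and number of the mice and the time from transfection to lysis were not given for these libraries in the sources used here. Nothing stated that replicates came from separate animals or cultures, so that p-values measure the spread between these libraries, which may be technical.

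Macrophages recycle most of the iron of the body by digesting senescent red blood cells. Iron enters bound to transferrin through the transferrin receptor or as haem, is moved out of endosomes and phagosomes by transporters of the NRAMP family, is stored in the cytosol inside shells of ferritin heavy and light chains, and leaves through ferroportin. When iron is scarce, the iron regulatory proteins bind a hairpin called the iron responsive element (IRE); a hairpin in the 5′ UTR blocks translation and hairpins in the 3′ UTR protect the transcript. BACH1 is a haem-sensing repressor of the genes for haem oxygenase, ferritin and ferroportin.

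A search of the annotated transcripts found the IRE hairpin in 4 of the 10 genes. These 27-base elements are printed because such hairpins are the sites bound by the iron regulatory proteins, the products of Aco1 and Ireb2. The search required an unpaired C, 5 paired bases, the loop CAGTGN and 5 bases pairing back, plus at least 4 of 5 pairs below the unpaired C, with G to T pairs allowed, on the transcript strand. The capitals mark the first 5 bases of the loop, and each sequence is given 5′ to 3′ on the transcript strand from GENCODE M21 transcripts, with positions on GRCm38:
Fth1, 5′ UTR, plus strand, chr19:9982733-9982759: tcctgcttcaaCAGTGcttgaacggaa
Ftl1, 5′ UTR, minus strand, chr7:45459780-45459806: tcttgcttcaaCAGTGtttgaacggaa
Slc40a1, 5′ UTR, minus strand, chr1:45925466-45925492: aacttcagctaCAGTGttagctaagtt
Tfrc element 1, 3′ UTR, plus strand, chr16:32631220-32631246: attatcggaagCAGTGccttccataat
Tfrc element 2, 3′ UTR, plus strand, chr16:32631599-32631625: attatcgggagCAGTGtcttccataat
Tfrc element 3, 3′ UTR, plus strand, chr16:32631664-32631690: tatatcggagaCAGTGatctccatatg
Tfrc element 4, 3′ UTR, plus strand, chr16:32631711-32631737: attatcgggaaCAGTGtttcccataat
The search found 1 element in each of Fth1, Ftl1 and Slc40a1 and 4 in Tfrc. The same pattern occurred in 30 of 21901 protein-coding genes (0.137%), in 7 of them in the 5′ UTR (0.032%), with Fth1, Ftl1 and Slc40a1 among these. A match describes letters only. Genes with a match may hold further hairpins of another form, and genes without one, Slc11a2 among them, may still hold such a hairpin.

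In brief, the data showed more ferroportin (Slc40a1) transcript with the MAARS gapmeR, by 1.68-fold, together with more Aco1 and Ncoa4, less Slc11a2 and less Fth1. Ftl1 was called higher by a small margin. Of the 10 genes, 4 were called higher and 2 lower by edgeR's quasi-likelihood test with a threshold of 0.05 on the adjusted p. Among all genes tested 45.4% were called, 21.3% higher and 24.0% lower, and the members' counts are to be read against these shares. In 5 of the 10 genes the values of the groups did not overlap, against 42.1% of all genes (19.3% in the higher direction and 22.8% in the lower). The median log2 fold change of the 10 genes was 0.09, and that of all genes was 0.01. At an unadjusted p under 0.0001, which 14.1% of all genes passed, 2 members were higher (Slc40a1 and Aco1) and 1 was lower (Slc11a2). None of the 10 reached an absolute log2 fold change of 1.5 with an adjusted p under 0.05, as 2.20% of all genes did. With upper-quartile scaling the share of calls in the higher direction rose from 47.0% to 60.4% over all genes, and the members' count went from 4 to 5 higher and remained at 2 lower.

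MAARS itself (listed as Gm14461, ENSMUSG00000054510) lay between 12.2 and 15.1 CPM (counts scaled to the size of the library after TMM normalization) in the control libraries and between 5.85 and 7.71 in the MAARS gapmeR libraries, a log2 fold change of -0.95 (edgeR adjusted p = 5.8e-05). The libraries held 19287279 to 20567123 counts on genes in the control group and 20839671 to 24541205 in the MAARS gapmeR group. The share of counts on mitochondrially encoded genes was 0.397% to 0.548% in the control group and 0.694% to 0.868% in the other, without overlap, and its part in the results was not tested. The 8 macrophage markers examined were all expressed, among them Adgre1 at 1296 and 1332 CPM. Their summed level was 14233 to 17292 CPM in control and 17092 to 20296 CPM in MAARS gapmeR libraries. Lyz2 made up most of this sum, with means of 9402 and 13170 CPM, so that the sum mainly follows that gene. Of the 8, 4 were called higher (Lyz2 and Csf1r among them) and 3 lower (Fcgr1, C1qa and Cd68). The part of these differences in the results was not tested. The 8 erythroid markers summed to at most 0.693 CPM and none had enough counts to be tested. Neutrophil markers summed to 101 to 298 and 105 to 168 CPM and fibroblast markers to 438 to 1006 and 691 to 1193 CPM, with none called; dendritic, lymphoid and mast cell lists summed to at most 2.49 CPM. In such bulk libraries fewer cells of a type and less RNA per cell cannot be told apart.

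Per length, the ferritin chains were the most abundant transcripts of the list by a wide margin. In control libraries the mean level per kilobase of the principal transcript was 8538 ± 917 CPM per kb for Ftl1 (SD, n = 4) and 5783 ± 184 for Fth1. Slc40a1 followed at 202 ± 21.2 and Slc11a1 at 142 ± 3.0 CPM per kb. The gap from ferritin to the exporter was thus far wider than the spread between replicates of either.
The remaining genes lay lower, at 60.8 ± 5.29 for Tfrc, 50.6 ± 5.81 for Ncoa4, 33.0 ± 2.56 for Bach1, 28.8 ± 0.627 for Slc11a2, 22.3 ± 1.37 for Aco1 and 14.8 ± 0.596 CPM per kb for Ireb2. Of the neighbours in this order, Tfrc and Ncoa4 overlapped between libraries, and Slc11a2 (28.1 to 29.6) and Bach1 (29.7 to 35.9) nearly met. In the MAARS gapmeR libraries the first 4 places of the order were the same, while Ncoa4 (65.5 ± 7.34) stood beside Tfrc (64.2 ± 4.06), with overlap, and Aco1 (28.0 ± 0.979) lay above Slc11a2 (21.2 ± 0.550) and overlapped with Bach1 (29.5 ± 2.13). With all annotated exonic bases as the length, Slc11a1 (88.7 ± 1.88) came before Slc40a1 (75.5 ± 7.93) in control libraries, with overlap, and without overlap Bach1 (31.3 ± 2.43) came before Ncoa4 (22.0 ± 2.52) and Aco1 (19.0 ± 1.16) before Slc11a2 (13.7 ± 0.298). The order within these 3 pairs therefore depends on the length used. Ftl1 came before Fth1 with either length. Without division by length, Fth1 averaged 8640 CPM and Ftl1 8264 CPM in control libraries, with overlap. The order of the ferritin chains in control libraries thus rests on the lengths as well.

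**Figure D1:**
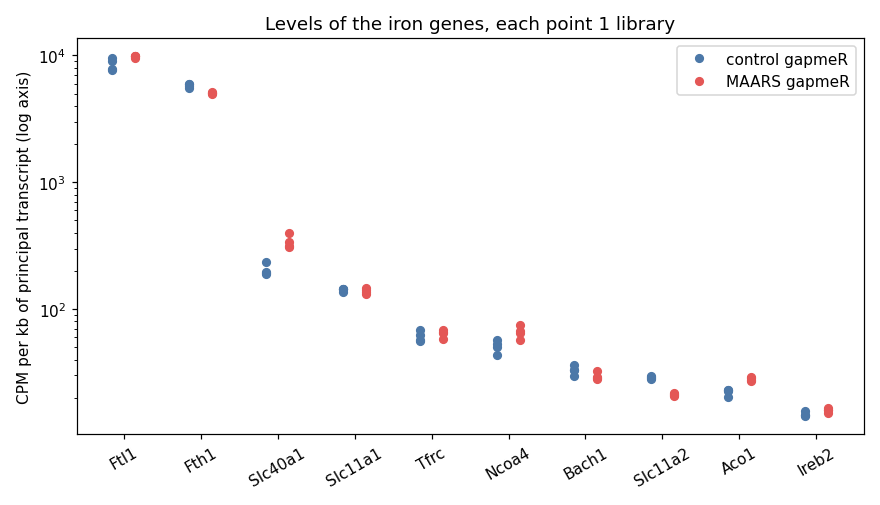
Level of each iron gene in CPM per kb of its principal transcript (vertical axis, log scale), with each point 1 library, control gapmeR in blue and MAARS gapmeR in red. Ftl1 and Fth1 lie above all other members, Slc40a1 shifts up and Slc11a2 shifts down with the MAARS gapmeR, and Ireb2 is the lowest.

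Among the uptake genes, Slc11a2 fell and Tfrc and Slc11a1 were not called. Slc11a2 (DMT1, ENSMUSG00000023030, minus strand, chr15:100387898-100425072) encodes the transporter that moves iron out of the endosome after transferrin has been taken up. It stood at 87.3, 86.9, 84.9 and 89.5 CPM in control libraries 2, 5, 6 and 7, and it stood at 63.1, 66.1, 65.2 and 62.6 CPM in MAARS gapmeR libraries 9, 11, 13 and 15; values below follow the same order. Every MAARS gapmeR library lay below every control library, and the replicates of each group were tight. Slc11a2 fell by 0.44 on the log2 scale (SE 0.042), or 26.3%, with an edgeR adjusted p of 1.33e-05, and the change ranged from -0.46 to -0.43 when each library was left out. Of its exonic bases, 6.33% overlap the opposite-strand gene Gm5475, which held 0 to 5 counts per library.

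Slc11a1 (NRAMP1, ENSMUSG00000026177, plus strand, chr1:74375195-74386062), the related transporter of the phagosome membrane of macrophages, did not follow. Its levels were 318, 332, 333 and 331 CPM in the control replicates and 340, 304, 327 and 316 CPM in the MAARS gapmeR replicates. The groups overlapped fully, with the highest and the lowest value both in the MAARS gapmeR group. The log2 fold change was -0.03 (SE 0.046, edgeR adjusted p = 0.606), and it was 0.03 with upper-quartile scaling. Tfrc (ENSMUSG00000022797, plus strand, chr16:32608920-32632794), the receptor for iron-loaded transferrin, read 331, 303, 275 and 280.1 CPM in control and 318, 333, 320 and 286 CPM in MAARS gapmeR libraries. Its groups overlapped as well, and the log2 fold change of 0.08 (SE 0.067) was not called (edgeR adjusted p = 0.362). It was 0.14 with upper-quartile scaling and without control replicate 2, and as low as 0.038 without control replicate 6, with no call in any of these fits. The 4 hairpins printed above lie in this transcript.

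Of the storage genes, the ferritin chains moved in opposite directions. Fth1 (ENSMUSG00000024661, plus strand, chr19:9980598-9985098) encodes the heavy chain, which oxidises iron as it enters the shell. It read 8830.2, 8899, 8519 and 8310.2 CPM in the control libraries and 7522, 7442, 7609 and 7656 CPM in the MAARS gapmeR libraries. All 4 MAARS gapmeR libraries were lower than all 4 control libraries. Fth1 fell by 0.19 on the log2 scale (SE 0.052), or 12.5%, with an edgeR adjusted p of 0.0102. It was called with each library left out in turn (adjusted p 0.00848 to 0.0323). With upper-quartile scaling the change was -0.13 (edgeR adjusted p = 0.0486), just inside the threshold.
Ftl1 (ENSMUSG00000050708, minus strand, chr7:45457944-45459884) encodes the light chain, which helps the iron core to form. Its levels were 8792, 9234, 7630.1 and 7401 CPM in control and 9600.4, 9522, 9289 and 9531 CPM in MAARS gapmeR libraries. The groups did not overlap, but control replicate 5 came within a small distance of the lowest MAARS gapmeR library, and the control libraries spread more widely (SD 888) than the others (SD 135). In log2 terms the difference was 0.20 (SE 0.075), 14.8% higher, with an edgeR adjusted p of 0.0489, just inside the threshold. The call was lost without control replicate 6 (adjusted p = 0.134) or 7 (0.117), and without MAARS gapmeR replicate 9 (0.103), 11 (0.0923), 13 (0.0791) or 15 (0.102), by edgeR in each case. Of the exonic bases of Ftl1, 26.5% overlap the opposite-strand gene Gm10252, which held 369 to 629 counts per library, and the strand setting of the counting was not given in the sources used here.

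The ferritin genes have many processed copies in the mouse genome, whose reads can be confused with theirs. Besides Fth1 and Ftl1, the data held 15 annotated genes and pseudogenes with symbols starting with Fth, Ftl or Ftmt. They include related protein-coding genes as well as processed pseudogenes, and copies under other names were not counted. Of the 15, 6 held any counts. Together they took 0.0643% to 0.0844% of the counts on these genes, Fth1 and Ftl1 in a library. How reads that map to several places were treated was not given in the sources used here. Fth1 and Ftl1 together took 1.57% to 1.81% of TMM-normalized counts in control libraries and 1.69% to 1.72% in MAARS gapmeR libraries, which overlapped. Ncoa4 (ENSMUSG00000056234, plus strand, chr14:32159865-32179855) encodes the receptor that carries ferritin to the lysosome, where its iron is released. It read 203, 231, 214 and 175 CPM in control and 302, 262, 272 and 229.8 CPM in MAARS gapmeR libraries. Only MAARS gapmeR replicate 15 lay within the control range, below control replicate 5. Its log2 fold change was 0.37 (SE 0.093), 29.4% higher, with an edgeR adjusted p of 0.00689, and the call held with each library left out (adjusted p 0.00337 to 0.0200).

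The exporter had the largest change of the 10 genes. Slc40a1 (ferroportin, ENSMUSG00000025993, minus strand, chr1:45908068-45926523) encodes the iron exporter of vertebrate cells. It read 657, 785, 631 and 644 CPM in the control libraries and 1338, 1051, 1135 and 1033 CPM in the MAARS gapmeR libraries. The lowest MAARS gapmeR library lay well above the highest control library, replicate 5, and replicate 9 was the highest of all. The mean rose from 679.5 ± 71.4 to 1139 ± 140 CPM (SD, n = 4). The log2 fold change was 0.75 (SE 0.092), 67.7% higher, with an edgeR adjusted p of 7.58e-05, and it ranged from 0.65 to 0.82 when each library was left out. The gene ranked 99 of the 13051 tested by mean level. None of its exonic bases overlap another annotated gene.

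**Figure D2:**
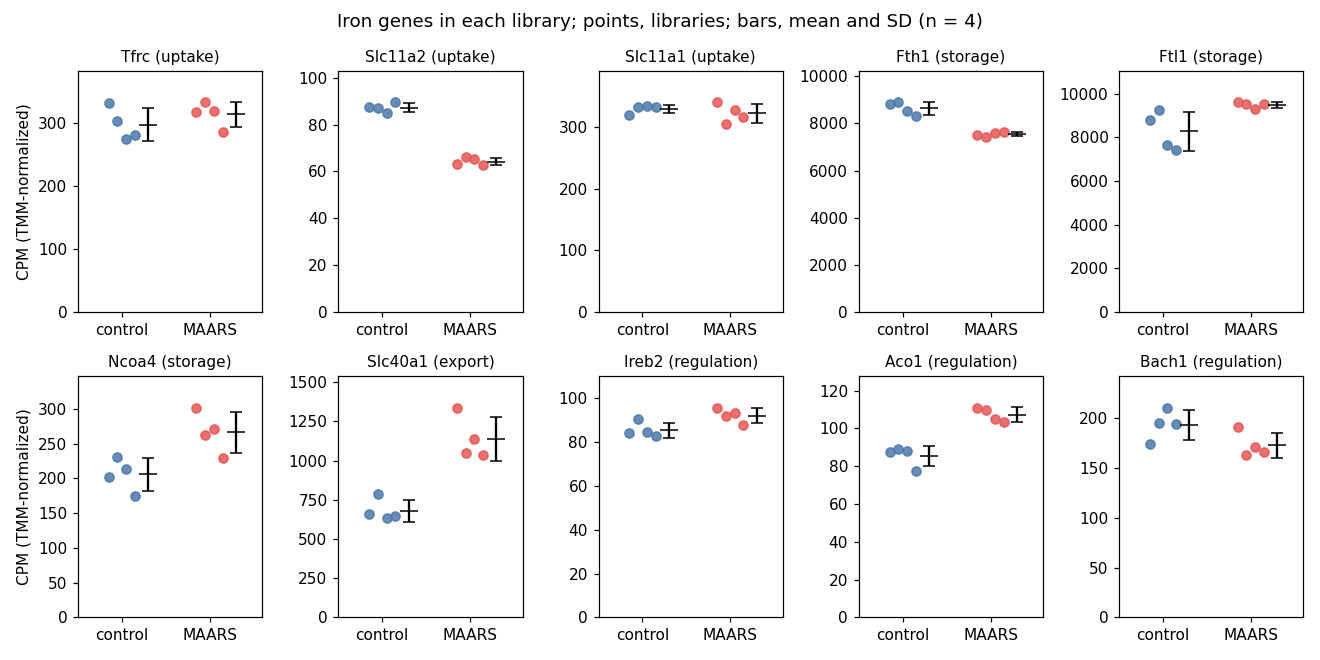
TMM-normalized CPM (vertical axes from 0, each gene on its own scale) of the 10 iron genes, with points for the 4 control gapmeR libraries in blue and the 4 MAARS gapmeR libraries in red, and the mean and SD beside them. Slc11a2 and Fth1 are lower and Slc40a1, Aco1 and Ftl1 higher in every MAARS gapmeR library, while Tfrc, Slc11a1, Ncoa4, Ireb2 and Bach1 overlap.

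Among the regulators, only Aco1 passed the test. Aco1 (ENSMUSG00000028405, plus strand, chr4:40143081-40198338) encodes iron regulatory protein 1, which is an aconitase when it holds an iron-sulfur cluster and an RNA-binding protein when it does not. It read 87.3, 88.9, 87.9 and 77.6 CPM in control and 111, 109.8, 105 and 103 CPM in MAARS gapmeR libraries. All 4 MAARS gapmeR libraries exceeded all 4 control libraries, of which replicate 7 was the lowest. Aco1 rose by 0.33 on the log2 scale (SE 0.052), or 25.6%, with an edgeR adjusted p of 0.000437, and it was 0.28 to 0.35 with each library left out.
Ireb2 (ENSMUSG00000032293, plus strand, chr9:54863789-54912530) encodes iron regulatory protein 2, which is degraded when iron is plentiful. It read 83.8, 90.4, 84.3 and 82.9 CPM in control and 95.6, 91.6, 92.9 and 87.8 CPM in MAARS gapmeR libraries. The groups overlapped through control replicate 5 and MAARS gapmeR replicate 15. The log2 fold change of 0.11 (SE 0.046) missed the threshold (edgeR adjusted p = 0.0784). It passed without control replicate 5 (0.13, edgeR adjusted p = 0.0442) and with upper-quartile scaling (0.17, adjusted p = 0.00848).

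Bach1 (ENSMUSG00000025612, plus strand, chr16:87698945-87733346), the haem-sensing repressor, stood at 174, 195, 211 and 194 CPM in control and at 191, 163, 171 and 166 CPM in MAARS gapmeR libraries. Control replicate 2 and MAARS gapmeR replicate 9 made the groups overlap. The log2 fold change was -0.16 (SE 0.066, edgeR adjusted p = 0.0649) and was not called. It passed without control replicate 2 (-0.20, edgeR adjusted p = 0.0191), without MAARS gapmeR replicate 9 (-0.22, adjusted p = 0.0184) and with no filter on low counts (-0.17, adjusted p = 0.0482). The antioxidant-type motif that BACH1 and NRF2 bind was searched as TGACNNNGCA in the promoter windows of RefSeq on GRCm38 (250 bases before to 50 after each start). The shorter pattern TGANTCA, which not every TGACNNNGCA contains, was searched as well, and both patterns on both strands. Neither was present in the 12 windows of 8 members, against 3.04% and 7.81% of all 32851 windows; Slc40a1 and Slc11a2 were not covered. The absence says only that these letters are not in these windows.

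Ratios between members within a library do not depend on how libraries are scaled to each other, and 5 were compared by a two-sided exact permutation test over the 8 libraries, whose smallest possible p is 0.0286. The heavy to light ferritin ratio, per kilobase of principal transcript, stood at 0.651, 0.624, 0.723 and 0.727 in the control libraries and at 0.508, 0.506, 0.531 and 0.520 in the MAARS gapmeR libraries. It was lower in every MAARS gapmeR library, by 0.40 on the log2 scale (exact permutation p = 0.0286, adjusted over the 5 ratios 0.0357), and the level, though not the difference, depends on the length used (0.405 and 0.308 with all exonic bases). With each library left out, the difference was -0.44 to -0.37.
The ratio of the receptor Tfrc to the exporter Slc40a1 had a mean log2 value (per exonic kb) of -0.65 ± 0.16 in control and -1.31 ± 0.17 in MAARS gapmeR libraries (SD, n = 4; exact permutation p = 0.0286, adjusted 0.0357), without overlap. The Ireb2 to Aco1 ratio fell from -1.08 ± 0.074 to -1.30 ± 0.035 and the Slc11a1 to Slc11a2 ratio rose from 2.69 ± 0.047 to 3.10 ± 0.092 on the same log2 scale, both without overlap and with the same exact permutation p (0.0286, adjusted 0.0357). The Tfrc to Fth1 ratio, -5.70 ± 0.092 in control and -5.43 ± 0.11 in MAARS gapmeR libraries (exact permutation p = 0.0571, adjusted 0.0571), overlapped through control replicate 2 and MAARS gapmeR replicate 15. With 4 libraries a group, an adjusted p of 0.0357 is that of any 4 of 5 ratios without overlap. How often ratios of other gene pairs do not overlap was not examined. Tfrc (log2 fold change 0.08) and Slc11a1 (-0.03) were not called. Their ratios to Slc40a1 and Slc11a2, respectively, therefore largely repeat the changes of Slc40a1 and Slc11a2.

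**Figure D3:**
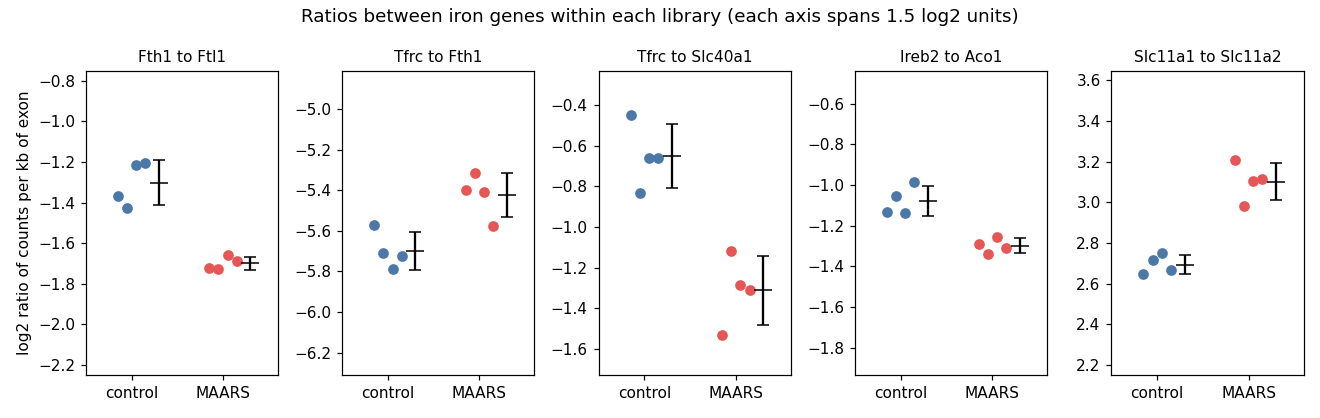
log2 ratio of counts per kb of exon between 5 pairs of iron genes (vertical axes, each spanning the same number of log2 units), with points for single libraries, control gapmeR in blue and MAARS gapmeR in red, and the mean and SD (n = 4) beside them. The Fth1 to Ftl1, Tfrc to Slc40a1 and Ireb2 to Aco1 ratios lie lower and the Slc11a1 to Slc11a2 ratio higher in every MAARS gapmeR library, while Tfrc to Fth1 overlaps.

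The wider iron machinery was taken from a list of 91 further genes in 7 groups, also chosen with earlier results known. Of the 91 genes, 76 had enough counts. Of these, 23 were called higher and 16 lower (51.3%, against 45.4% of all genes), with a median log2 fold change of 0.01. With upper-quartile scaling these counts were 29 higher and 11 lower. Transferrin and other uptake genes had 5 of 11 higher and 1 lower (54.5% called). Trf, transferrin itself, lay between 59.3 and 76.4 CPM in control and between 115 and 158 in MAARS gapmeR libraries, a log2 fold change of 0.96 (edgeR adjusted p = 2.61e-05). Of its exonic bases, 63.5% overlap the same-strand gene Gm20425, which held 0 counts in all libraries, and how reads shared by overlapping genes were assigned was not given in the sources used here. The zinc and iron importers Slc39a14 (0.58, adjusted p = 0.000849) and Slc39a8 (0.39, adjusted p = 0.00131) were higher too. Steap3, an endosomal ferrireductase, was lower (-0.30, adjusted p = 0.00159). Hfe, which binds the transferrin receptor, was higher (0.27, adjusted p = 0.0213), a call lost without MAARS gapmeR replicate 9 (0.23, adjusted p = 0.0617) or 13 (0.24, adjusted p = 0.0595).

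Haem handling had 4 of 11 genes higher and 2 lower (54.5% called, against 45.4% of all genes). Cd163, the haemoglobin scavenger receptor, read 6.86, 6.67, 5.41 and 5.11 CPM in control and 32.7, 20.97, 21 and 31.1 CPM in MAARS gapmeR libraries, the largest change of the list (log2 fold change 2.13, SE 0.17, edgeR adjusted p = 6.49e-06). The groups lay far apart. Blvrb, a biliverdin reductase, was higher (0.58, adjusted p = 1.21e-05), as was the haem transporter Slc48a1 (0.24, adjusted p = 0.00106). Hmox2, the constitutive haem oxygenase, was lower (-0.37, adjusted p = 0.000219), although 40.2% of its exonic bases overlap Cdip1 on the other strand, and so was the haem exporter Flvcr1 (-0.31, adjusted p = 0.000916), with 15.6% of its exonic bases under a gene on the other strand. Hmox1, the inducible haem oxygenase and a BACH1 target, was not called (-0.12, adjusted p = 0.145); without control replicate 5 it was -0.17 (adjusted p = 0.0456).

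The 8 cytosolic iron-sulfur assembly genes had 6 lower and none higher, against 24.0% lower and 21.3% higher of all genes, with a median log2 fold change of -0.20. Some of these calls lay close to the threshold, with an edgeR adjusted p of up to 0.0454. In this group up to 36.9% of a gene's exonic bases overlap a gene on the other strand. Nubp2 (-0.47, edgeR adjusted p = 7.39e-05), a scaffold of the pathway, Ciao1 (-0.42, adjusted p = 9.13e-05), which targets clusters to client proteins, and Ciao2a (-0.22, adjusted p = 0.00190), which serves the cluster of iron regulatory protein 1, were the 3 with the smallest p. Their groups did not overlap. Ciao2a fell while Aco1, the gene of its client, rose. Mitochondrial iron and haem synthesis had 7 of 26 higher and 2 lower (34.6% called, against 45.4% of all genes): Urod (0.33, adjusted p = 0.00197), Abcb8 (0.39, adjusted p = 0.00248), the cysteine desulfurase Nfs1 (0.25, adjusted p = 0.00430) and the mitochondrial iron importer Slc25a37 (0.37, adjusted p = 0.00921) were higher and Isca2 was lower (-0.39, adjusted p = 0.000896). Cisd1 was called lower (-0.25, adjusted p = 0.0241), but not without control replicate 6 (-0.23, adjusted p = 0.0608) or 7 (-0.21, adjusted p = 0.0678), nor without MAARS gapmeR replicate 9 (-0.22, adjusted p = 0.0627) or 13 (-0.23, adjusted p = 0.0598).

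Iron and oxygen sensing had 6 of 13 higher and 4 lower (76.9% called), against 21.3% higher and 24.0% lower of all genes (45.4% called). Ndfip1 (0.39, edgeR adjusted p = 0.000365), an adaptor of ubiquitin ligases known to act on DMT1, the product of Slc11a2, was higher, with 156 to 180 CPM in control and 200 to 232 CPM in MAARS gapmeR libraries. The related adaptor Ndfip2 was lower (-0.19, adjusted p = 0.00610) and the ligase Nedd4l higher (0.44, adjusted p = 0.000614). Egln1, an iron-dependent oxygen sensor, was higher (0.36, adjusted p = 0.000463). Hif1a (-0.28, adjusted p = 0.000996) and the RNA-decay factor Zfp36 (-0.38, adjusted p = 0.00154) were lower. Fbxl5, the iron sensor that marks iron regulatory protein 2 for degradation, was not called (-0.12, adjusted p = 0.215), nor was Nfe2l2, the gene of NRF2 (276 CPM in both groups, adjusted p = 0.995). Of 5 chaperone and ferritin partner genes, Pcbp4 was higher (0.79, adjusted p = 9.33e-05). Herc2, whose product marks NCOA4 for degradation, was lower (-0.24, adjusted p = 0.0278), but not called without control replicate 5 (-0.24, adjusted p = 0.0540) or 7 (-0.24, adjusted p = 0.0555) or without MAARS gapmeR replicate 13 (-0.24, adjusted p = 0.0544). In the hepcidin group 2 of 9 genes were tested and neither was called, among them the ferroxidase Cp (-0.40, adjusted p = 0.139; -0.24 without control replicate 7 and -0.56 without MAARS gapmeR replicate 13, neither called); Hamp, the gene of the hormone that removes ferroportin from the membrane, averaged 0.0998 CPM in control and was at 0 in the other group, too low to test.

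**Figure D4:**
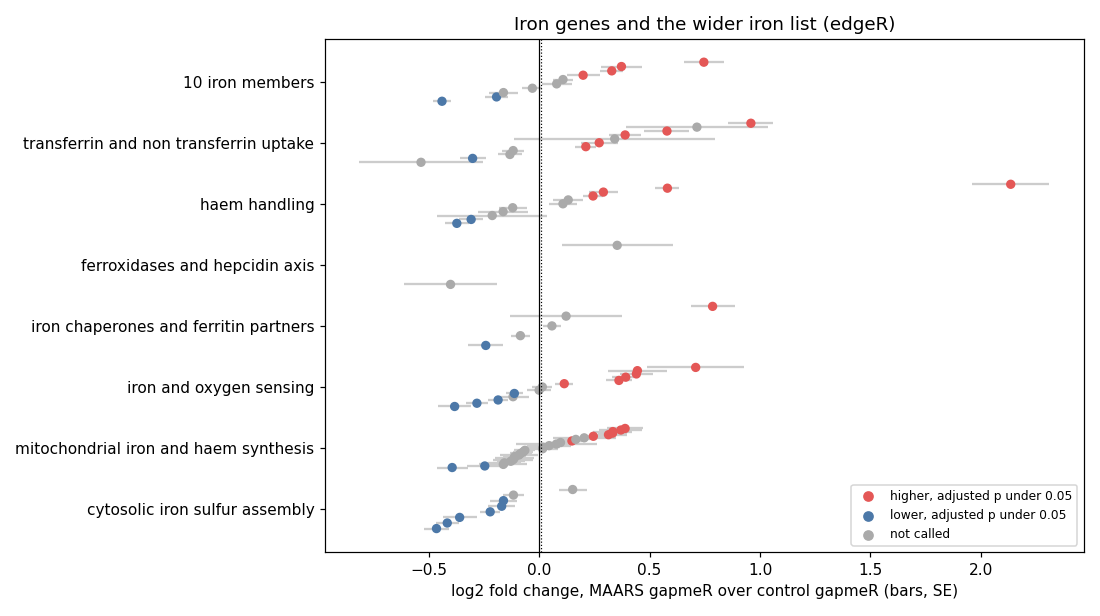
log2 fold change of MAARS gapmeR over control gapmeR (horizontal axis) with its SE for the 10 iron genes and for each tested gene of the wider list by group; red points were called higher and blue points lower at an edgeR adjusted p under 0.05, grey points were not called, and the dotted line is the median of all genes. Cd163 lies farthest to the right, and the coloured cytosolic iron-sulfur assembly genes all lie to the left of 0.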

How the data were processed

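The authors trimmed reads (Trimmomatic 0.36), aligned them with STAR 2.5.2b to GRCm38 using Ensembl annotation, and assigned them to genes with featureCounts (Subread 1.5.2), per the submitters' processing notes and the study's methods. The deposited values are raw counts, not normalized, from ribodepleted total RNA read as 100 nt pairs. Counting settings for strand and for reads with several hits were not given in the sources used here.

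From these counts, R 4.3.3 and edgeR 4.0.16 were used with filterByExpr (minimum count 10, minimum total 15), TMM factors (0.955 to 1.03), glmQLFit and glmQLFTest on 4 against 4 libraries, with Benjamini-Hochberg adjustment over the 13051 genes; calls used an adjusted p under 0.05. Every adjusted p of a gene is from this fit unless another is named. Library totals of 19287279 to 24541205 counts set the counting precision, and the biological coefficient of variation was 8.51%. Chi-square between replicates was 4.30 to 15.5 per gene, so replicates differed by more than sampling noise. In GENCODE M21, 99.5% of gene identifiers were found. Ratios were tested by exact permutation. RefSeq promoter windows covered 8 of the 10 genes.

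The members and lists were chosen with earlier results of these data known. Named from the wider list were up to 3 genes per group and direction with the smallest p among those called, plus Hmox1, Hfe, Steap3, Slc39a14, Cp, Hamp, Fbxl5, Slc25a37 and Nfe2l2; transferrin, listed as Tf, was matched under its mouse symbol Trf after the table had been seen. Alternatives were RLE and upper-quartile factors, omitting the filter, requiring 10 counts on average, DESeq2 1.42.0, limma-voom (3.58.1), 1 surrogate variable (sva 3.50.0), other thresholds and each library left out. The procedure was also run on simulated counts with few or no changed genes. Far more genes were called in these data, so that run does not test the scaling between libraries.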

Additional observations from a re-analysis of the deposited data

Results flagged for a closer look

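In 4 of the 94 groups of 4 libraries examined (the 10 iron genes, MAARS, the named genes of the wider list and the ratios, in each group), 1 library stood apart from the other 3 by more than Dixon's critical value at the 95% level; chance flags about 1 group in 20. Slc40a1 was at 785 CPM in control replicate 5, above the other control libraries and still below every MAARS gapmeR library. Ndfip1 was at 180 CPM in the same library, also the highest of its group. Aco1 was at 77.6 CPM in control replicate 7, below the other control libraries, and without it the log2 fold change was the smallest of those with a library left out, 0.28 (edgeR adjusted p = 0.000988). Slc11a1 was at 318 CPM in control replicate 2, the lowest of a group whose other 3 libraries lay within 331 to 333 CPM.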

How the results depend on the processing

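The members' directions held in all alternatives run, except that Slc11a1, not called, turned to 0.0316 with upper-quartile factors. Ireb2 was called with those factors (0.17) and Bach1 with no filter (-0.17). With each library left out, the log2 fold changes were 0.15 to 0.25 for Ftl1, 0.0842 to 0.131 for Ireb2 and -0.22 to -0.12 for Bach1. At an unadjusted p under 0.0001, 2 members were higher and 1 lower; when the adjusted p was joined to a log2 change of 1.5 or more in size, 0 were higher and 0 lower. The members called numbered 3 to 5 higher and 2 to 3 lower, and those of the wider list 19 to 24 higher and 12 to 16 lower, with each library left out; upper-quartile factors gave 29 higher and 11 lower for the wider list. Nfe2l2, at -0.0005, was 0.0065 with RLE factors, 0.0626 with upper-quartile factors, 0.0021 with DESeq2, 0.0010 with limma-voom and -0.0417 to 0.0259 with each library left out. Cisd1 (-0.18) and Herc2 (-0.18) were not called with upper-quartile factors, and Cp was called with 1 surrogate variable (-0.34). Upper-quartile factors moved the median of all genes by 0.06 (log2). No paired analysis was possible because the replicate numbers of the groups (2, 5, 6 and 7 against 9, 11, 13 and 15) share none.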
